A study of Mus musculus with 6 samples.

Results

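The genes described here encode the oxidative phosphorylation machinery, the 4 respiratory chain complexes and the ATP synthase of the inner mitochondrial membrane. Members were chosen by symbol alone, as every gene whose symbol starts with mt-, Nduf, Uqcr or Atp5, matches Cox4 to Cox8, or is Sdha, Sdhb, Sdhc or Sdhd. This rule took 107 of the 32285 genes in the deposited count matrices. Of these, 13 are transcribed from the mitochondrial genome and 94 from nuclear chromosomes. The nuclear members comprised 37 subunits of complex I, 4 of complex II, 8 of complex III, 20 of complex IV and 17 of complex V, with 8 Ndufaf assembly factors of complex I.

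The study asked how intracellular pH bears on cell fate in the intestinal epithelium. Organoids grown from the small intestine of 10-week-old mice were collected at day 3 and profiled by droplet single-cell RNA-seq in 6 libraries. WT organoids received vehicle (-EIPA, DMSO on the label, n = 2 libraries) or 5 µM EIPA (+EIPA, n = 2). EIPA is an amiloride derivative, used in the study to inhibit the sodium-proton exchanger NHE1. Inducible CRISPR-Cas9 organoids carried a lentiviral vector with a doxycycline-driven Cas9-EGFP and the same guide, against NHE1, in both libraries. They grew without doxycycline (-Dox, NHE1 CRISPR on the label, n = 1) or with 2 µg/mL doxycycline (+Dox, NHE1 CRISPR KO on the label, n = 1). These organoids came from single puromycin-resistant clones, and the +Dox cells alone were sorted as live GFP-positive cells, the others as live cells.

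As background, electrons from NADH enter the chain at complex I and those from succinate at complex II, pass through complex III and cytochrome c, and reach oxygen at complex IV. The proton gradient built on the way drives ATP synthesis by complex V. Complexes I, III, IV and V are mosaics of subunits encoded by both genomes, and complex II is wholly nuclear, so the mitochondrial and nuclear transcripts must be supplied together. In the intestine, absorptive enterocytes are rich in mitochondria, and mitochondrial activity in stem cells and their neighbours is known to bear on stem cell function.

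Nuclear members are transcribed from ordinary promoters, and nuclear respiratory factor 1 (NRF1) is a known regulator of many of them. Promoters of 300 bases (250 before and 50 after the start, RefSeq GRCm38.p6) were matched for 75 of the 94 nuclear members. A core of the NRF1 motif, the letters set in capitals in each line below, reads the same on both strands and lay in 7 of these 75 (9.33%), against 1.07% of all 27025 promoters. The 7 sites are printed because they show what these promoters share, each on the gene's strand with 10 bases on either side. The position given is that of the motif's first base, counted from 0 at the start site and negative before it.
Atp5g2 (chr15:102671070-102671099, minus strand, -42): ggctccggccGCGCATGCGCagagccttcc
Atp5k (chr5:108434430-108434459, minus strand, -50): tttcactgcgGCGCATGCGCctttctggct
Cox6a1 (chr5:115349101-115349130, minus strand, -162): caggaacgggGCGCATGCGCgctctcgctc
Ndufa11 (chr17:56717692-56717721, plus strand, -60): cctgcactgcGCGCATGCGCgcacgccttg
Ndufaf4 (chr4:24897960-24897989, plus strand, -113): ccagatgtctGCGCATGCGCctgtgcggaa
Ndufaf5 (chr2:140170652-140170681, plus strand, 16): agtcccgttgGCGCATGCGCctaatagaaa
Uqcrc1 (chr9:108936668-108936697, plus strand, 30): actccgctctGCGCATGCGCagcgcggctc

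The other motifs were searched on both strands in the same windows. The YY1 letters AAGATGGCG lay in 8 of 75 member promoters (10.7%, against 1.64% of all promoters), those of Atp5j, Atp5j2, Ndufa9, Ndufaf8, Ndufc1, Ndufs4, Ndufs6 and Ndufs7. The GABP letters ACTTCCGG lay in 5 (6.67%, against 4.31%), those of Atp5h, Cox8a, Ndufs3, Uqcr11 and Uqcrh. The oestrogen-related receptor letters TCAAGGTCA lay in those of Atp5g3 and Sdhd (2.67%, against 0.466%), and the HNF4 letters CAAAGTCCA in 0 of 75 against 0.555%. The YY1 letters were shortened by their last bases after the matches of a longer form, which lay in fewer member promoters, had been seen. A match describes the letters in the window and is not a measured binding site.

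Cells with 1000 or more genes and under 20% mt- UMIs were kept, 87954 in all and 12083 to 18211 per library, with 161670015 to 239368573 UMIs per library and a median of 11477.5 to 17020 UMIs per cell. The mt- limit alone removed 3.38% to 15.0% of the barcodes that passed the gene limit, most in -EIPA replicate 1. Library pairs shared 33 to 78 barcodes, 0.273% to 0.563% of the smaller library. Cell classes were named from fixed markers after clustering without the members: intestinal stem cell (ISC)-like, proliferating-like, enterocyte-like, Goblet/Paneth-like, enteroendocrine cell (EEC)-like and tuft-like, with 14.7% to 17.2% of cells per library unnamed. Immune markers summed to 0.443 to 1.10 CPM (UMIs of the genes per 1000000 UMIs of the cells) and fibroblast and endothelial markers to 0.451 to 13.2 CPM over the libraries, so the labelled epithelium was nearly free of both. Markers of EEC summed to 1165 to 1992 CPM in the WT libraries, but 67.3 and 191 in the CRISPR libraries.

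Nearly all members were transcribed in these cells. A mean of 10 CPM or more was reached by 87 of the 94 nuclear members and by all 13 mt- members. The 7 nuclear members below it are tissue-restricted or inducible isoforms of complex IV. Over all 6 libraries together, Cox6b2 (the testis form) had 519 UMIs, Cox6a2 (the heart and muscle form) 355 and Ndufa4l2 (a hypoxia-inducible paralog) 250. Cox4i2, Cox8b, Cox8c and Cox7b2 had 1, 2, 1 and 0 UMIs. The muscle and heart form Cox7a1 was the exception among isoforms of this kind, with 144130 UMIs.

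Both genomes supplied about 1 UMI in 20. Transcripts with the mt- prefix took 5.72% and 3.93% of UMIs in the -EIPA libraries, 5.23% and 3.76% in +EIPA, 4.68% in -Dox and 5.68% in +Dox. Nuclear members took 4.39% and 4.67% in -EIPA, 4.38% and 4.72% in +EIPA, 5.07% in -Dox and 5.27% in +Dox. The first replicate of each WT group, which came from Experiment 1, was high in mt- transcripts and low in nuclear ones, and the second replicate the reverse. The log2 ratio of nuclear to mt- UMIs was accordingly -0.38 and 0.25 in -EIPA and -0.26 and 0.33 in +EIPA, so the experiments lay further apart than the treatments.

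**Figure D1:**
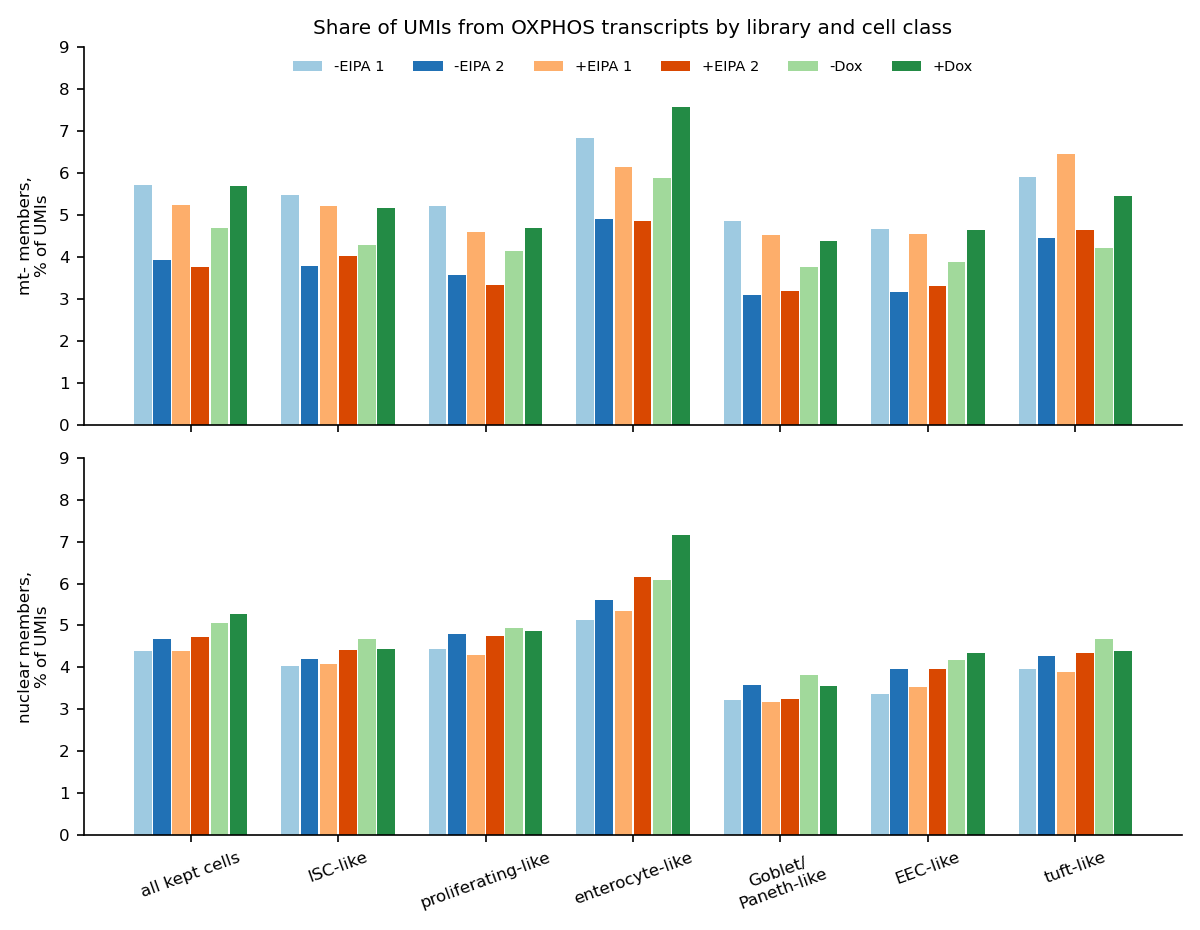
Share of UMIs, in percent, from mt- members (upper panel) and nuclear members (lower panel) in the 6 libraries, over all kept cells and within each named class; each bar is 1 library. Replicate 1 of the WT groups stands above replicate 2 for mt- members and below it for nuclear members in every class, and enterocyte-like cells have the highest nuclear share in each library.

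The classes differed more than the treatments. Enterocyte-like cells gave 4.85% to 7.56% of their UMIs to mt- transcripts and 5.12% to 7.16% to nuclear members. Goblet/Paneth-like cells gave 3.09% to 4.85% and 3.17% to 3.83%. ISC-like cells lay between them, at 3.79% to 5.48% mt- and 4.03% to 4.68% nuclear. The comparisons that follow set each class against ISC-like cells of the same library. They describe clusters of these cells and carry no test, and the classes differ in depth, with a median of 9709 to 14151 UMIs in ISC-like cells and 13780 to 21471 in proliferating-like cells.

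Enterocyte-like cells had more transcript of every complex and less of several assembly factors. Of 86 nuclear members measured at 10 CPM or more, 71 were higher than in ISC-like cells in 6 of 6 libraries, where 32.4% of all genes were, and 6 were lower, where 48.4% of all genes were. By complex, those higher were 32 of 37 subunits of complex I, 4 of 4 of complex II, 7 of 8 of complex III, 11 of 13 of complex IV and 15 of 17 of complex V. The median log2 ratio was 0.34 for nuclear members, 0.28 for mt- members and -0.20 for all genes. Class membership includes 1 cluster with few UMIs and a mt- share of 12.2%.

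Succinate dehydrogenase gave one of the clearest examples. Sdhb, its iron-sulphur subunit, stood at 196, 184, 209.6, 206, 201 and 201 CPM in ISC-like cells of the -EIPA, +EIPA, -Dox and +Dox libraries in that order, and at 395, 353, 421, 426, 393 and 489 CPM in enterocyte-like cells. The lowest enterocyte-like value lay well above the highest ISC-like value, and the mean log2 ratio was 1.04 ± 0.12 (SD, n = 6 libraries). Sdhd, a membrane anchor, followed at 0.84 ± 0.15, Sdhc, the other anchor, at 0.58 ± 0.13 and Sdha, the flavoprotein, at 0.32 ± 0.28.

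Other complexes had leading members of their own. In complex I, the accessory subunit Ndufv3 had a log2 ratio of 1.07 ± 0.21, with 257, 256, 254, 283, 311 and 255 CPM in ISC-like cells and 491, 472, 504, 615, 632 and 704 CPM in enterocyte-like cells. Ndufa6, another accessory subunit, had a ratio of 0.98 ± 0.22. In complex III, the Rieske iron-sulphur protein Uqcrfs1 had a ratio of 0.88 ± 0.15. In complex IV, Cox5a stood at 0.85 ± 0.17 and the core nuclear subunit Cox4i1 at 0.43 ± 0.06. In complex V, the catalytic subunits differed less, with 0.17 ± 0.08 for Atp5b and 0.26 ± 0.12 for Atp5a1.

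Of the complex I assembly factors, 4 of 7 were lower and 2 higher in 6 of 6 libraries, with a median log2 ratio of -0.48. These counts were near the shares of all genes, of which 48.4% were lower and 32.4% higher. Ndufaf2 stood at 87.2, 77.8, 88.6, 85.5, 102 and 79.7 CPM in ISC-like cells and at 43.2, 53.9, 40.3, 38.3, 54.2 and 43.2 CPM in enterocyte-like cells, a log2 ratio of -0.94 ± 0.23 with no overlap. Ndufaf7, Ndufaf6 and Ndufaf1 had ratios of -0.75, -0.74 and -0.48. The lower subunits were Atp5g2, one of 3 genes for the same c-ring protein of complex V, at -0.38 ± 0.13 (Atp5g1 stood at 0.42 ± 0.16), and Cox7a2l, which joins complexes III and IV into supercomplexes, at -0.24 ± 0.15.

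Mitochondrial transcripts were less uniform than nuclear ones in enterocyte-like cells. Higher in 6 of 6 libraries were mt-Co1, mt-Co2 and mt-Co3, the core of complex IV, with log2 ratios of 0.58 ± 0.12, 0.49 ± 0.04 and 0.40 ± 0.08, together with mt-Nd1 at 0.55 ± 0.12 and mt-Atp6 at 0.28 ± 0.17. The other 8 were higher in some libraries and lower in others, among them mt-Nd5 at 0.04 ± 0.32 and mt-Cytb at 0.14 ± 0.18. None of the 13 was lower in all 6.

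Proliferating-like cells showed nuclear and mitochondrial transcripts apart. Of 87 nuclear members, 63 were higher than in ISC-like cells in 6 of 6 libraries (43.2% of all genes were) and 7 lower (24.7% of all genes), while 0 of 13 mt- members were higher and 8 lower. The median log2 ratio was 0.15 for nuclear and -0.15 for mt- members, against 0.07 over all genes. Assembly factors were the most regular group, with 7 of 8 higher: Ndufaf4 stood at 75.4, 73.2, 78.7, 80.6, 93.8 and 79.7 CPM in ISC-like cells and, in the same libraries, at 101, 109, 102, 111, 116 and 99.4 CPM. Cox5a and Atp5g1 had ratios of 0.39 ± 0.08 and 0.38 ± 0.08, whereas mt-Nd4 stood at -0.26 ± 0.14 and Cox7a2l at -0.31 ± 0.07. With clusters made without correction for library, 5 nuclear members were higher in 6 of 6. The share of all genes with those clusters is not given here. A fall of the members and a fall of all genes thus cannot be told apart.

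Goblet/Paneth-like cells were lower for almost every member. Of 86 nuclear members, 83 were lower than in ISC-like cells in 6 of 6 libraries (43.9% of all genes were) and 2 were higher (27.3% of all genes), Cox7a1 and Ndufv3. All mt- members but mt-Co1 were lower in all 6. The median log2 ratio was -0.31 for nuclear members and -0.32 for mt- members, against -0.10 over all genes. Uqcr10, a small subunit of complex III, stood at 867, 978, 864, 1085, 1021 and 956 CPM in ISC-like cells against 561, 693, 569, 656, 689 and 676 CPM. The lowest mt- member was mt-Nd6 at -0.69 ± 0.14, the single mitochondrial mRNA of these 13 read from the opposite strand.

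EEC-like and tuft-like cells held fewer cells and shallower ones, with 411 to 1202 and 49 to 391 cells per library. In EEC-like cells 55 of 86 nuclear members were lower in 6 of 6 libraries (19% of all genes were) and 7 higher (54.5% of all genes), and 12 of 13 mt- members were lower. The 7 were Cox7a1, Ndufv3 (0.65 ± 0.08), the assembly factor Ndufaf3 (0.46 ± 0.11), Ndufs5, Ndufa1, Uqcrfs1 and Atp5md. In tuft-like cells 30 of 86 were lower (15% of all genes) and 20 higher (37.2% of all genes), and mt-Co1 and mt-Co2 were higher, at 0.44 ± 0.15 and 0.20 ± 0.13.

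One assembly factor stood out in tuft-like cells. Ndufaf3 was at 114, 97.7, 68.4, 78.4, 60.5 and 80.6 CPM in tuft-like cells and at 33.3, 37.3, 29.8, 33.8, 32.4 and 32.3 CPM in ISC-like cells. Every tuft-like value lay above every ISC-like value, and the mean ratio was 2.46 (log2 1.3 ± 0.29, n = 6). Ndufv3 followed at 0.65 ± 0.20.

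**Figure D2:**
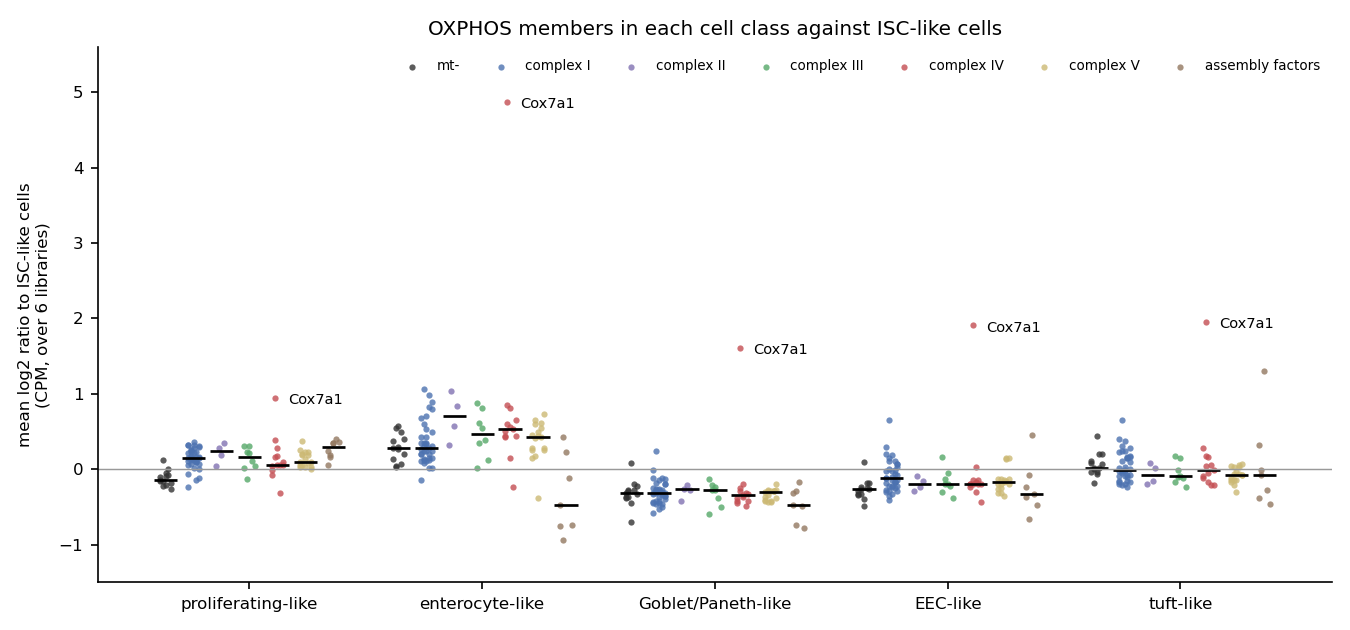
Mean log2 ratio of each member's CPM to ISC-like cells of the same library (vertical axis, over 6 libraries) in 5 classes, with points coloured by genome or complex and a bar at each group's median. Nuclear subunits and mt- members lie mostly above 0 in enterocyte-like cells and below 0 in Goblet/Paneth-like cells, nuclear and mt- members separate in proliferating-like cells, and Cox7a1 is the highest point in each class.

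Neighbouring mitochondrial pathways, counted from fixed lists, did not all follow the members. In enterocyte-like cells 13 of 14 fatty acid oxidation genes were higher in 6 of 6 libraries and 0 lower, with a median log2 ratio of 0.93. Genes for mitochondrial DNA expression and copying had 2 of 19 higher and 16 lower, and the mitochondrial ribosome 11 of 78 higher (14.1%) and 44 lower (56.4%), beside 32.4% and 48.4% of all genes. The TCA cycle had 10 of 18 higher and 6 lower, and the ADP, ATP and phosphate carriers 6 of 8 higher and 1 lower. In proliferating-like cells 74 of 78 mitochondrial ribosome genes and 14 of 18 TCA cycle genes were higher, beside 43.2% of all genes, and in Goblet/Paneth-like cells 72 of 78 and 13 of 18 were lower, beside 43.9%.

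Cox7a1 (ENSMUSG00000074218), a subunit 7a isoform of complex IV known from heart and skeletal muscle, varied most of all measured members across classes. Its promoter is printed as that of the member with the widest range of levels. The window held none of the 5 motifs, as was so for most of the 75 matched member promoters. The 300 bases run on the plus strand at chr7:30183921-30184220 (RefSeq GRCm38.p6), with the 50 bases from the start site onwards in capitals.
Cox7a1 promoter: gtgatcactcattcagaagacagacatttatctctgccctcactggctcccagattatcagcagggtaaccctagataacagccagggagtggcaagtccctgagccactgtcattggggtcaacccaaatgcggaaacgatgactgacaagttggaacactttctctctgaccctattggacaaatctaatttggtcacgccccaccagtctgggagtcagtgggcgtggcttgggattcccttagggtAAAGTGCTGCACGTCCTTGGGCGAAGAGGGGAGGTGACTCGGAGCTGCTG

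Enterocyte-like cells held Cox7a1 at 315 and 199 CPM in -EIPA, 357 and 455 in +EIPA, 397 in -Dox and 559 in +Dox. ISC-like cells held it at 8.45 and 8.45 CPM in -EIPA, 9.72 and 12.1 in +EIPA, 20.97 in -Dox and 19.99 in +Dox. The ratio within a library ran from 18.9 to 37.7, with a mean log2 ratio of 4.88 ± 0.41 (SD, n = 6 libraries). The ubiquitous isoform Cox7a2 had a ratio of 0.82 ± 0.19 in the same comparison.

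The other classes lay between these extremes, with mean log2 ratios to ISC-like cells of 0.95 ± 0.31 for proliferating-like, 1.61 ± 0.18 for Goblet/Paneth-like, 1.91 ± 0.28 for EEC-like and 1.95 ± 0.43 for tuft-like cells (SD, n = 6). The ranges of the last 3 over libraries overlapped. Per 1000 UMIs of the enterocyte marker list, Cox7a1 had 6.32 to 10.4 UMIs in enterocyte-like cells, 8.63 to 14.8 in ISC-like cells, 11.9 to 19.7 in proliferating-like cells and 7.54 to 18.9 in the other classes. In -EIPA replicate 1, proliferating-like cells held 21.5 CPM of Cox7a1 against 8.45 in ISC-like cells, with marker sums of 1262 and 979 CPM. The part of free RNA or of mixed droplets in the low levels was not tested.

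**Figure D3:**
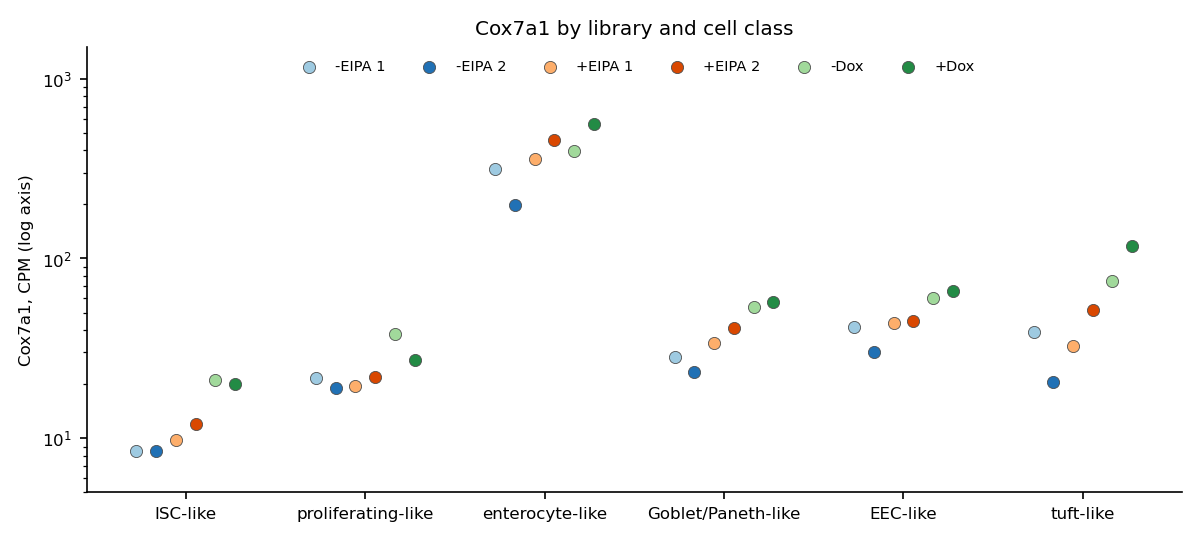
Cox7a1 level in CPM (log axis) in each named class, 1 point for each of the 6 libraries. Enterocyte-like cells sit between 199 and 559 CPM, above every other class, and ISC-like cells between 8.45 and 20.97 CPM.

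EIPA was compared over the 4 WT libraries, to ask whether the members differed with the inhibitor. The mt- share was 4.83% ± 1.27 in -EIPA and 4.49% ± 1.04 in +EIPA (SD, n = 2 each), with a difference of -0.492 in Experiment 1 and -0.172 in Experiment 2 (exact two-sided permutation test, p = 0.667). The nuclear share was 4.53% ± 0.198 and 4.55% ± 0.241 (exact permutation p = 1). Leaving out -EIPA replicate 1 or +EIPA replicate 2 turned the sign of both, to 0.564 or 0.404 for the mt- share and to -0.122 or -0.153 for the nuclear share. Leaving out 1 library also lets in the gap between the experiments. Within the experiments the mt- share was lower in +EIPA in both, the nuclear share differed by -0.0128 and 0.0483, and the log2 ratio of nuclear to mt- UMIs was higher by 0.13 and 0.08. Neither share difference exceeded the spread between unpaired replicates, 2 libraries against 2 cannot give an exact p below 0.33, and 2 pairs are too few for an exact paired test to reach 0.05. In sums over all kept cells, fewer cells of a type and less RNA per cell cannot be told apart.

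Without a term for the experiment, no member was called by edgeR's quasi-likelihood test at an adjusted p under 0.05. This held over all kept cells and in each of the 6 classes, where the share of all genes called was 0% over all kept cells, 0% for ISC-like and 0% for proliferating-like cells, 0.00792% for enterocyte-like cells, 0.174% for Goblet/Paneth-like cells, 0.0811% for EEC-like cells and 0.113% for tuft-like cells. At an unadjusted p under 0.05 the test gave 2 nuclear members over all kept cells, 2, 1, 4, 1, 1 and 2 in the classes in that order, and 0, 1, 0, 0, 0, 0 and 2 mt- members. Counts at an unadjusted p, here and below, have no share of all genes at that threshold beside them. They do not show whether members or list genes stand out. DESeq2 called 1 member, Cox7a1, over all kept cells, where it called 4.47% of all genes, and in enterocyte-like cells (3.85%). It called 0 members in ISC-like (0.216% of all genes), proliferating-like (0.813%), Goblet/Paneth-like (0.942%), EEC-like (0.3%) and tuft-like cells (0.0821%). Of the 9 mitochondrial pathway lists together (225 to 229 genes tested), edgeR called 0 genes in this fit. At an unadjusted p under 0.05 it gave 18 over all kept cells and 3 to 27 in the classes. DESeq2 called 3 higher and 3 lower over all kept cells, 3 and 2 in enterocyte-like, 5 and 1 in proliferating-like cells and 0 in the other classes. These DESeq2 calls are to be read against its shares of all genes, 4.47%, 3.85% and 0.813% in that order.

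Cox7a1 had the largest difference among members at 50 CPM or more. Over all kept cells it stood at 80.0 and 47.7 CPM in -EIPA and 108 and 119 in +EIPA, so the groups did not overlap. Of all genes at 50 CPM or more, 12.0% were higher in +EIPA without overlap and 41.4% lower. Of nuclear members at that level, 7.32% and 13.4% were. The log2 difference of Cox7a1 was 0.92 ± 0.26 (SE), with an adjusted p of 0.36 by edgeR, 0.079 with the experiment as a block and 0.0092 by DESeq2. The log2 ratio was 0.44 in Experiment 1 and 1.32 in Experiment 2. Without -EIPA replicate 1 the difference was 1.32 ± 0.14, whereas without -EIPA replicate 2 it was 0.60. In enterocyte-like cells it was 0.79 ± 0.26, with an adjusted p of 0.25, 0.090 and 0.0491 in the same order, and the log2 ratio was 0.18 in Experiment 1 and 1.19 in Experiment 2. Leaving out -EIPA replicate 1 gave 1.22 there and leaving out -EIPA replicate 2 gave 0.48.

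Enterocyte transcripts moved in the same direction. The enterocyte marker list summed to 8615 and 4867 CPM in -EIPA and to 15185 and 13415 in +EIPA over all kept cells. Of the 2 larger enterocyte-like clusters, the one richer in Cox7a1 held 4.88% and 2.80% of kept cells in -EIPA and 7.05% and 6.56% in +EIPA. Within that cluster Cox7a1 stood at 508 and 353 CPM in -EIPA and 537 and 676 in +EIPA (log2 0.62, adjusted p = 0.288), and in the other at 232 and 149.9 and at 260.3 and 312 (0.69, adjusted p = 0.331). Their part in the difference over all kept cells was not tested.

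Other members at 50 CPM or more had smaller differences, none called by edgeR without the block. A selection of them is given, not a full ranking. Over all kept cells Atp5md (a small subunit of complex V) had a log2 difference of 0.29 ± 0.24, Uqcrq (complex III) 0.22 ± 0.10, Atp5k (complex V) 0.21 ± 0.09 and mt-Co3 -0.22 ± 0.32. In enterocyte-like cells Atp5md had 0.53 ± 0.26, Ndufc1 0.42 ± 0.20, Atp5k 0.41 ± 0.16 and Ndufb7 0.36 ± 0.15. The median log2 difference of nuclear members there was 0.21, that of mt- members 0.05 and that of all genes -0.04, with 79 of 89 nuclear members above 0. With library size in place of TMM these medians were 0.08, -0.09 and -0.17, with 61 of 89 above 0, so the sign of the mt- median depends on the scaling. Within the class the enterocyte marker list moved too, from 39760 and 25906 CPM in -EIPA to 56498 and 57092 in +EIPA. The cluster richest in nuclear members held 615 of 2354 and 510 of 2543 of its cells in -EIPA and 930 of 2850 and 935 of 2688 in +EIPA. Within that cluster the median log2 difference of nuclear members was 0.25, and in the largest cluster of the class 0.15, with 81 and 80 of 88 above 0. In ISC-like cells the medians were 0.11, 0.15 and 0.00, with 83 of 88 nuclear members above 0, or 59 of 88 by library size. Over all kept cells 60 of 89 were above 0, or 39 by library size. By CPM there, at 50 CPM or more, 26 of 82 nuclear members were higher in both experiments and 37 lower, beside 21.6% and 63.6% of all genes. Higher in both were 52.5% of nuclear members in ISC-like and 60.5% in enterocyte-like cells, beside 25.5% and 33.8% of all genes. In the cluster richest in nuclear members 72.5% were, and in the largest enterocyte-like cluster 51.9%, beside 38.6% and 28.1%. The share of all genes above 0 in these fits is not given here.

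The replicate numbers paired the libraries by experiment, so the fit was repeated with the experiment as a block. This changed the calls, most of all in ISC-like cells, where 38 members were called: 29 nuclear members higher in +EIPA and 0 lower, 8 mt- members higher and mt-Co3 lower. Of all genes tested there, 7.23% were called and 4.18% were called as higher in +EIPA. The higher nuclear members were 13 of 37 subunits of complex I, 1 of 4 of complex II, 4 of 8 of complex III, 5 of 14 of complex IV and 6 of 17 of complex V, and no assembly factor. The changes were small: the largest among nuclear members was 0.46 ± 0.14 (SE, adjusted p = 0.0186) for Cox7a1, at 8.45 and 8.45 CPM against 9.72 and 12.1, and the others had 0.31 or less.

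The mitochondrial members of ISC-like cells split by gene. mt-Nd4l, a core membrane subunit of complex I, stood at 896 and 539 CPM in -EIPA and at 1201 and 769 in +EIPA. The groups overlapped, but within each experiment +EIPA was higher, and the blocked log2 change was 0.54 ± 0.05 (adjusted p = 2.52e-27). mt-Nd2, at 3830 and 2500 CPM against 4586 and 3213, rose by 0.38 ± 0.04, mt-Nd1 by 0.31 ± 0.04 and mt-Nd4 by 0.25 ± 0.04. mt-Co3 ran the other way, at 8476 and 5043 CPM against 6124 and 4399 (-0.26 ± 0.04, adjusted p = 1.14e-07). The mt- share as a whole was 5.48% and 3.79% in -EIPA and 5.20% and 4.02% in +EIPA.

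Among nuclear members of ISC-like cells, Atp5k led in p-value. It stood at 511 and 435 CPM in -EIPA and 573 and 540 in +EIPA, without overlap, and the blocked change was 0.31 ± 0.05 (adjusted p = 2.52e-08). Of all genes at 50 CPM or more in these cells, 9.09% were higher in +EIPA without overlap and 23.8% lower. Ndufb2, an accessory subunit of complex I, followed at 197 and 225 against 226 and 267 CPM (0.29 ± 0.05, adjusted p = 1.98e-06). Atp5md, Ndufb1-ps, Ndufc1, Ndufa3 and Atp5e had changes of 0.25, 0.25, 0.24, 0.24 and 0.23, and Sdhb, at 196 and 184 against 209.6 and 206 CPM, one of 0.20 ± 0.05.

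Markers of other cells moved with this result. In the blocked fit of ISC-like cells 11 of 19 enterocyte markers, 6 of 13 Goblet markers, 7 of 12 Paneth markers and 5 of 18 proliferation markers were higher in +EIPA, 6 of 12 ISC markers were lower, Lgr5 and Olfm4 among them, and 6 of 9 stress and RNA quality genes were lower. Their part in the members' changes was not tested. The count of members called depended on the fit, as did the share of all genes. It was 12 of 101 with library size in place of TMM (9.11% of all genes), and 13 of 85 with DESeq2, which left an adjusted p for 818 genes (11.1% called). It was 5 of 101 with clusters made without correction for library (4.64% of all genes), near the background share. In that last fit 1 nuclear and 1 mt- member were higher and 3 mt- members lower, with a median log2 change of -0.02 over the mt- members against 0.16 before, so most mt- calls were then lower. There, the ISC-like clusters were mostly of 1 library each, with 252 to 5309 cells per library against 997 to 2155.

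**Figure D4:**
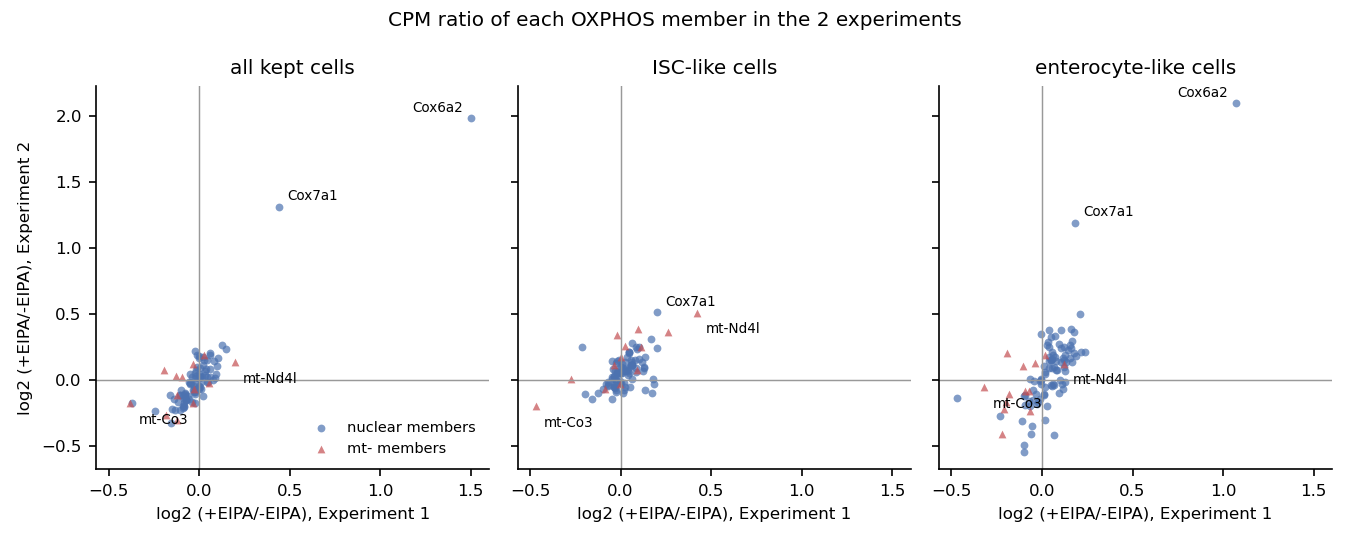
log2 ratio of +EIPA to -EIPA CPM of each member in Experiment 1 (horizontal axis) and Experiment 2 (vertical axis), over all kept cells and in ISC-like and enterocyte-like cells; circles are nuclear members and triangles mt- members. Most members lie close to 0 in both experiments, Cox7a1 lies above 0 in both, and in ISC-like cells mt-Nd4l and mt-Co3 lie at opposite ends.

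With the block, edgeR called few members elsewhere. In proliferating-like cells (5.75% of all genes called, 3.46% as higher) Ndufa1, Uqcrq, Cox6a2 and mt-Nd4l were higher, and mt-Co3 and mt-Atp6 were lower by 0.31 and 0.20 on the log2 scale. In Goblet/Paneth-like cells (5.97% called, 4.45% as higher) Cox7a1 was higher, at 28.2 and 23.3 CPM against 33.7 and 41.2 (0.66 ± 0.10, adjusted p = 5.85e-07), as was mt-Nd4l (0.33 ± 0.08). The enterocyte marker list summed to 2176 and 1731 CPM in -EIPA and 3999 and 3820 in +EIPA in these cells, and Cox7a1 per 1000 of its UMIs was 12.9 and 13.5 against 8.43 and 10.8. Its part in the change of Cox7a1 was not tested. Over all kept cells (5.28% called, 4.47% as higher) edgeR called Cox6a2 alone (1.80 ± 0.28, adjusted p = 0.0398), at 0.179 and 0.0794 CPM against 0.508 and 0.314. With the block edgeR called 0 members in enterocyte-like cells (4.09% of all genes), EEC-like cells (1.85%) and tuft-like cells (0.8%). At an unadjusted p under 0.05 it gave 13, 4 and 2 nuclear and 0, 3 and 5 mt- members there. No share of all genes at an unadjusted p stands beside these counts, so they do not show whether the members stand out. DESeq2 with the block called 0 in each, where it called 3.95%, 0.397% and 0.0513% of all genes. DESeq2 with the block called 25 of 102 members over all kept cells, 20 nuclear and 3 mt- members as higher and 1 of each as lower, where it called 15.1% of all genes. In proliferating-like and Goblet/Paneth-like cells it called 4 and 2 members (2.84% and 1.37% of all genes).

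Of the pathway lists, the block called 9 of 78 mitochondrial ribosome genes as higher in ISC-like cells, where 4.18% of all genes were called as higher and 7.23% in either direction. The counts of several lists that follow are near these shares. It called Cyc1 and Cycs, cytochrome c1 and cytochrome c, and the ADP/ATP carriers Slc25a4 and Slc25a5 as higher too. Pdss1, an enzyme of ubiquinone synthesis, was lower there. Of assembly factors outside the member prefixes, Cox17, Higd1a and Uqcc2 of 37 were higher, of 27 genes for mitochondrial DNA expression Slirp was higher, and of 15 fatty acid oxidation genes Eci1 and Hadh were lower. Of 18 TCA cycle genes edgeR called 0 with the block in ISC-like cells, with 6 at an unadjusted p under 0.05, and DESeq2 without the block called 0. Of 14 regulators of mitochondrial biogenesis, Hnf4a alone was called in ISC-like cells, as lower.

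In the other comparisons the block called 6 of 229 list genes higher and 4 lower over all kept cells (5.28% of all genes called). It called 11 and 7 in proliferating-like (5.75%), 1 and 2 in enterocyte-like (4.09%) and 8 and 6 in Goblet/Paneth-like cells (5.97%). Outside proliferating-like cells these counts are near or below those shares, and the genes are named as a description. Pdss1 was lower in 5 of the 7 comparisons, with a log2 change of -0.58 ± 0.06 over all kept cells (adjusted p = 0.021, edgeR). DESeq2 without the block called it over all kept cells and in proliferating-like and enterocyte-like cells. Coq8a, which also acts in ubiquinone synthesis, was lower over all kept cells and in proliferating-like, enterocyte-like and Goblet/Paneth-like cells. The assembly factor Cox18 was lower over all kept cells (-0.38 ± 0.05) and in proliferating-like and Goblet/Paneth-like cells, and Timmdc1 in Goblet/Paneth-like cells, whereas Cox17 was higher in proliferating-like and Goblet/Paneth-like cells and Cox16 in enterocyte-like cells. Of the TCA cycle, Mdh2 was higher over all kept cells (0.33 ± 0.06, adjusted p = 0.0455).

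Dox was compared between 1 library each, so no test was possible, and the +Dox cells alone were gated on GFP and were deeper (a median of 17020 against 11952 UMIs per cell). Counts of ratios cover genes at 10 CPM or more in either library, 87 nuclear and 13 mt- members over all kept cells. Among these a ratio of 1.5 or more was reached by 3 members, where 5.34% of all genes reached it, and a ratio of 1/1.5 or less by 0 members, where 1.74% of all genes did. Cox7a1 went from 124 to 192 CPM (ratio 1.55, 95% interval 1.53 to 1.58), mt-Atp6 from 7723 to 11719 (1.52) and mt-Nd2 from 3152 to 4768 (1.51). Intervals here and below are exact and cover counting error only. The enterocyte marker sum went from 10237 to 21550 CPM in the same libraries. With a mt- limit of 10% no member at 10 CPM or more reached 1.5. Below 10 CPM, Cox6a2 had 39 UMIs in -Dox and 111 in +Dox (ratio 2.80, interval 1.93 to 4.14), and Ndufa4l2 had 195 and 28 (0.141, interval 0.0914 to 0.210).

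Mitochondrial transcripts differed unequally between these libraries. mt-Nd3, mt-Co2 and mt-Nd4 had ratios of 1.42, 1.33 and 1.32, mt-Co3, mt-Co1 and mt-Nd1 of 1.04, 0.95 and 0.95, and mt-Nd5 of 0.84. Of 13 mt- members 9 were higher in +Dox, and of 87 nuclear members 51 were, with median log2 ratios of 0.20 and 0.02 against -0.08 over all genes. The lowest nuclear members at 10 CPM or more were the assembly factors Ndufaf2 (88.5 to 66.3 CPM, ratio 0.75) and Ndufaf6 (0.79).

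By class the ratios varied. Leaving aside the few tuft-like cells, the ratio of mt-Nd2 ran from 1.35 in proliferating-like to 1.72 in enterocyte-like cells. In the same classes that of mt-Atp6 ran from 1.40 to 1.69, that of mt-Nd5 from 0.70 to 1.00 and that of mt-Co1 from 0.83 to 0.95. In enterocyte-like cells mt-Nd2, mt-Atp6, mt-Nd3, mt-Nd4 and Ndufa1 reached 1.5 (6.62% of all genes did) and no member had 1/1.5 or less (8.95% of all genes did), while 71 of 86 nuclear members were higher, beside 3065 of 7263 genes in all. The enterocyte marker sum of these cells went from 38062 to 64555 CPM, and the cluster richest in nuclear members from 1208 of 4161 to 1603 of 3347 cells. Within that cluster the nuclear share differed by 1.04 percentage points, and within the cluster largest over all libraries by 0.923. Over the whole class the nuclear share differed by 1.08 percentage points, and it differed by 0.161 in EEC-like cells, but by -0.242 in ISC-like, -0.0721 in proliferating-like, -0.269 in Goblet/Paneth-like and -0.283 in tuft-like cells. In ISC-like cells 19 of 87 nuclear members were higher in +Dox, and in proliferating-like cells 34 of 87, beside 2670 of 7573 and 2557 of 7575 genes in all. In Goblet/Paneth-like cells mt-Nd2 alone reached it, at 1.52 (1.77% of all genes). In tuft-like cells, with 68 and 49 cells, 8 members reached 1.5 (13.8% of all genes) and Ndufaf1 and Ndufaf5 had 1/1.5 or less (13.8%).

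The ratio of mt-Atp8 was 1.14 against 1.52 for mt-Atp6, although both lie on the same messenger. Their reading frames overlap on chrM:7927-7969 (GRCm38, plus strand), printed here because reads cannot be split between the genes there, with the start codon of mt-Atp6 and the stop codon of mt-Atp8 in capitals.
mt-Atp8 and mt-Atp6 overlap: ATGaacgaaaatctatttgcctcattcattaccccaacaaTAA

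**Figure D5:**
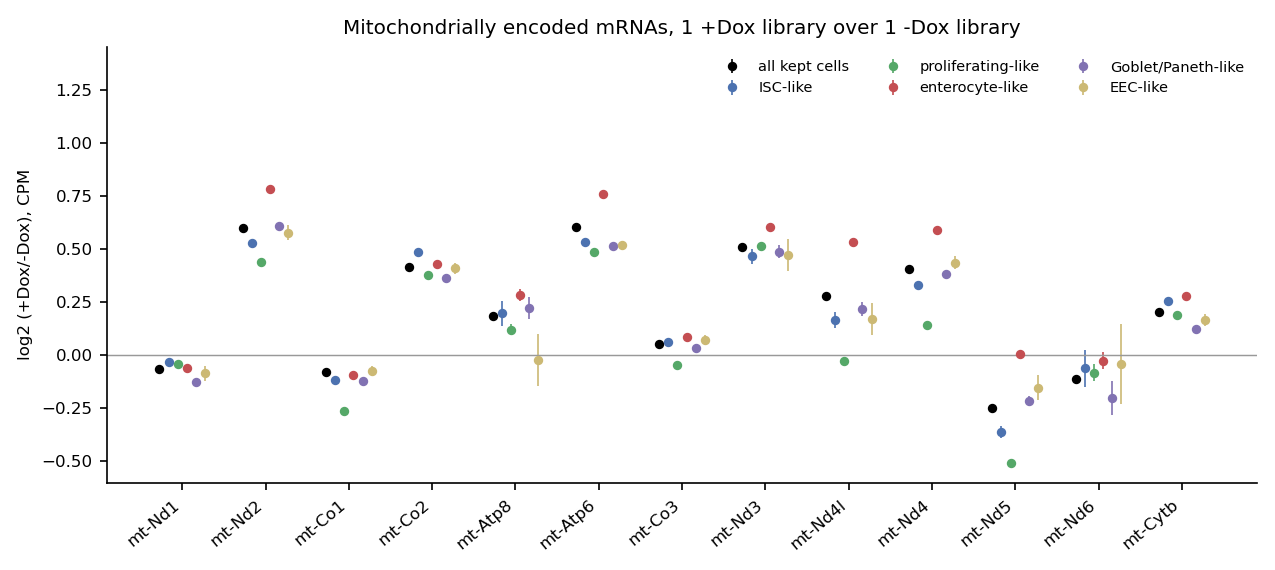
log2 ratio of +Dox to -Dox CPM for the 13 mt- members (horizontal axis) over all kept cells and in 5 classes, from 1 library each; vertical lines are 95% counting intervals. mt-Nd2 and mt-Atp6 lie highest in most classes, and mt-Nd5 lies at or below 0 in all of those shown but enterocyte-like cells, where its ratio is 1.00.

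The CRISPR libraries were also set beside the WT libraries. Among members with a mean of 10 CPM or more, both were 1.5 times or more above all 4 WT libraries for 3 of 87 nuclear members, where 3.1% of all genes were, and as far below for 0, where 1.01% of all genes were. These counts are near the shares over all genes, and the values of the 3 are given as a description. Cox6a1, the ubiquitous form of subunit 6a, stood at 541, 491, 543 and 524 CPM in the WT libraries and at 1040 and 1135 in -Dox and +Dox. Atp5j2 stood at 856, 1003, 884 and 1115 against 1694 and 1808, and Cox6c at 1113, 1444, 1138 and 1488 against 2379 and 2550. No mt- member did so. Below 10 CPM, Ndufa4l2 stood at 0.838 and 0.118 CPM in -Dox and +Dox against 0 to 0.0559 in WT, and Cox6b2 at 0 in both against 0.542 to 0.854. The vector and the clone differ together between these groups and cannot be told apart, and the sources used here do not say whether the groups shared an experiment.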

How the data were processed

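Per the labels, the submitters' processing notes and the study's methods, libraries were prepared with 10x 3' chemistry and the authors made UMI counts per gene and cell with Cell Ranger 6.1.2 on mm10 (GRCm38). The deposited values are raw counts, with nothing normalised. Here, cells with 1000 or more genes and under 20% mt- UMIs were kept. Cells were clustered with scanpy 1.11.5 (3000 genes without members, 45 principal components corrected by library with Harmony, 20 neighbours, Leiden resolution 0.8), and clusters were named from fixed markers. UMIs were summed per library, and per library and class, and scaled to UMIs per 1000000 (CPM). +EIPA was tested against -EIPA on these sums with edgeR 4.0.16 (quasi-likelihood test, TMM, filterByExpr, p adjusted by Benjamini-Hochberg over every tested gene and called under 0.05). The single-cell test of the study was not used, because cells of 1 library are not replicates. DESeq2 1.42.0, library size, no filter, other cell limits, other clusters and leaving out each library were alternatives. All scripts with statistics were tested on simulated data.

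The study's source data number the WT replicates as Experiments 1 and 2 in both groups, so the numbers pair the libraries. Over genes at 50 CPM or more, deviations of same-numbered libraries correlated at 0.768 over all kept cells, and at 0.872 for ISC-like, 0.887 for proliferating-like, 0.511 for enterocyte-like, 0.768 for Goblet/Paneth-like, 0.675 for EEC-like and 0.295 for tuft-like cells. The study states 2 separate preparations of the WT organoids. With 1 library of each group in each, p-values of the fit without the block measure the spread between these preparations. With the block, the difference between preparations is taken out. Those p-values rest on how alike the +EIPA difference was in the 2 preparations, with variance estimates shared over genes. A very small p-value there thus comes from 2 pairs of libraries.

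Depth was 161670015 to 239368573 UMIs in kept cells per library, and counting intervals cover counting error only. Called doublets were kept. The level of the gene targeted in the CRISPR organoids is not reported here. Members, gene lists and motifs were chosen with earlier results of these data known. Named in each tested comparison were members past the threshold, up to 20 by p, then members of largest change at 50 CPM or more, besides the 13 mt- members and a fixed list of subunits; in classes and for Dox, the fixed list and the 5 largest ratios each way. Sequences came from RefSeq GRCm38.p6 and the matching genome.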

Additional observations from a re-analysis of the deposited data

Results flagged for a closer look

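Some differences of +EIPA minus -EIPA in the share of UMIs had one sign in both experiments in one class and the other sign in both experiments in another class. The difference between the classes was not tested, and each group has 2 libraries. For the mt- share, tuft-like cells had a mean difference of 0.357 percentage points (0.538 in Experiment 1 and 0.176 in Experiment 2), while proliferating-like cells had -0.433 (-0.630 and -0.237) and enterocyte-like cells -0.368 (-0.686 and -0.0511).

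For the nuclear share, ISC-like cells had 0.129 percentage points (0.0487 and 0.21) and enterocyte-like cells 0.388 (0.23 and 0.546), while proliferating-like cells had -0.0881 (-0.132 and -0.0442) and Goblet/Paneth-like cells -0.194 (-0.0574 and -0.331). At 50 CPM or more, 58.0% of nuclear members were lower in both experiments in proliferating-like and 61.25% in Goblet/Paneth-like cells. Of all genes 60.8% and 58.0% were, so these shares were near those of all genes. Higher in both were 52.5% in ISC-like and 60.5% in enterocyte-like cells, beside 25.5% and 33.8% of all genes. With the block and TMM, the median log2 change of nuclear members was 0.02 in proliferating-like and -0.01 in Goblet/Paneth-like cells. For the log2 ratio of nuclear to mt- UMIs, proliferating-like cells had 0.11 and enterocyte-like cells 0.18, while tuft-like cells had -0.0896. The classes pool clusters of unlike nuclear level, whose sizes differed between the groups. Of enterocyte-like cells, the cluster richest in nuclear members (68631 CPM) held 615 of 2354 and 510 of 2543 in -EIPA and 930 of 2850 and 935 of 2688 in +EIPA, and the nuclear share within it differed by 0.371 and 0.812 percentage points. Of Goblet/Paneth-like cells, the cluster richest in them (40708 CPM) held 557 of 1336 and 882 of 2345 in -EIPA and 495 of 1538 and 670 of 2540 in +EIPA, and its part in the difference was not tested. Tuft-like cells were few, at 49 to 391 per library.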

How the results depend on the processing

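Without the block, the number of members called over the 7 EIPA comparisons was 0 by edgeR. It became 1 with DESeq2 over all kept cells and in enterocyte-like cells, and with no filter 2 in ISC-like, 2 in enterocyte-like and 1 in Goblet/Paneth-like cells, where no filter called 0.728%, 5.65% and 2.08% of all genes. Leaving out each library in turn left a lone sample in a group, which was then assumed to vary like the other group. No calls are counted from those fits. Each call by DESeq2 or with no filter was Cox7a1, apart from 2 classes with no filter. There mt-Nd2 and mt-Nd4l were the calls in ISC-like cells, and Cox6a2 was the other call in enterocyte-like cells.

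The replicate block pairs the experiments. With it, members called were 1 over all kept cells, 38 in ISC-like, 6 in proliferating-like and 2 in Goblet/Paneth-like cells, and it changed no other call. The block combined with a mt- limit of 10% gave 4, 34, 6 and 2 in that order and 1 in enterocyte-like cells; with the highest 10% of doublet scores removed 4, 38, 8 and 1, and 2 in enterocyte-like cells; with library size in place of TMM 3, 12, 9 and 1, and 1 in enterocyte-like cells; with mt- genes left out 1, 28, 3 and 1; with DESeq2 25, 13, 4 and 2; and with clusters made without correction 5, 13 and 2 in the 3 classes, and 3 in enterocyte-like cells. Of all genes, the block called 5.28% over all kept cells and 7.23% in ISC-like cells, and these combinations 7.39% and 6.59%, 7.65% and 7.30%, 10.4% and 9.11%, 5.12% and 7.10%, and 15.1% and 11.1% in the same order, with 4.64% in ISC-like cells for the last. Over all kept cells the share of members lay above that of all genes with DESeq2 alone. For the other classes these shares are not given here, save those of DESeq2 with the block further up. The other counts in those classes thus have no background. These combinations were chosen after seeing the data, and the causes were not tested.

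Leaving out each library in turn, without the block, moved mt-Co3 between -0.55 and 0.21, mt-Nd4l between -0.0835 and 0.58 and Ndufa1 between -0.10 and 0.60 over all kept cells, mt-Co3 between -0.61 and 0.13 and Ndufa1 between -0.22 and 0.51 in ISC-like cells, and Cox7a1 between -0.0119 and 0.21 in proliferating-like cells. It moved the mt- share difference between -1.23 and 0.564, the nuclear share difference between -0.153 and 0.188 and the log2 ratio difference between -0.21 and 0.42, and the median over cells gave -0.00838 for the nuclear share.

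For Dox, 0 members at 10 CPM or more passed the fold of 1.5 under a mt- limit of 10%. The mt- share difference of 1.00 percentage points became 0.779 with that limit, 1.27 with no limit, 0.974 with 500 or more genes, 0.992 with the highest doublet scores removed and 0.846 as a median over cells. The nuclear share difference of 0.200 became 0.153, 0.179, 0.205, 0.188 and -0.0859 in that order. Without correction of clusters, nuclear members higher in proliferating-like cells went from 63 to 5, and mt- members higher in enterocyte-like cells from 5 to 9. The share of all genes with those clusters is not given here, so these moves cannot be read as particular to the members. The planned removal of called doublets was not run, because the automatic threshold of Scrublet marked 1, 0 and 0 cells in 3 libraries and 10.7% to 12.5% of cells in the other 3. Depth limits tuft-like cells and the 7 low members most, and 2 libraries a group limit every EIPA test.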

Other observations

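Part of a list of integrated and mitochondrial stress response genes moved in the fit with the experiment as a block. The list was chosen with earlier results of these data known. Over all kept cells 5 of 16 were higher in +EIPA and 0 lower, where 4.47% of all genes were called as higher. The enterocyte marker list moved with them there (8615 and 4867 CPM in -EIPA, 15185 and 13415 in +EIPA), and its part in these changes was not tested. They were Atf5, a transcription factor of the mitochondrial unfolded protein response (log2 0.74 ± 0.05, SE, adjusted p = 0.011), Asns, asparagine synthetase (0.53 ± 0.05, adjusted p = 0.021), Mthfd2, a mitochondrial folate enzyme (0.60 ± 0.07, adjusted p = 0.0247), Trib3 (0.93 ± 0.15) and Chac1 (1.27 ± 0.18). In proliferating-like cells (3.46% of all genes called as higher) these 5 and Gdf15 (0.84 ± 0.10) were higher, with Atf5 at 0.88 ± 0.05 and Mthfd2 at 0.76 ± 0.06, and the enterocyte markers summed to 1262 and 1095 CPM in -EIPA against 1422 and 1308 in +EIPA. Chac1 and Trib3 were low, at means of 5.67 and 8.93 CPM over all kept cells and 4.65 and 6.76 in proliferating-like cells.

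In Goblet/Paneth-like cells (4.45% of all genes) the same 6 genes were higher, and in EEC-like cells (1.48%) Atf5 and Chac1. In ISC-like cells (4.18%) Asns, Atf5, Chac1 and Mthfd2 were higher, while Atf4 was lower (-0.40 ± 0.06). Chac1 had a mean of only 1.03 CPM in ISC-like cells, and Chac1 and Trib3 had 3.52 and 4.46 in Goblet/Paneth-like cells. Enterocyte markers summed to 2176 and 1731 CPM in -EIPA against 3999 and 3820 in +EIPA in Goblet/Paneth-like cells. In EEC-like cells they summed to 2930 and 2469 against 5037 and 4479, and in ISC-like cells to 979 and 793 against 1076 and 1030. Their part in these changes was not tested. Without the block edgeR called 0 genes of the stress response list in all 7 comparisons. At an unadjusted p under 0.05 it gave 5 over all kept cells and 6 in proliferating-like cells. DESeq2 called 2 and 5 there, where it called 4.47% and 0.813% of all genes. With the block edgeR called 0 of 16 in enterocyte-like and 0 of 15 in tuft-like cells, with 7 and 2 at an unadjusted p under 0.05. DESeq2 without the block called 0 in both. Of the same list, Hspd1, Hspe1, Hspa9, Lonp1, Clpp, Clpx, Trap1 and Dnaja3 were called in none of these fits.

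Ppargc1a, a coactivator known to drive mitochondrial biogenesis, was higher in +EIPA by DESeq2 over all kept cells (log2 1.03 ± 0.28, SE, adjusted p = 0.0098) and in enterocyte-like cells (1.02 ± 0.33, adjusted p = 0.0491). With the block edgeR called it in proliferating-like cells (0.69 ± 0.15, adjusted p = 0.0238) and in Goblet/Paneth-like cells (0.81 ± 0.21, adjusted p = 0.0076), and without the block in none of the 7 comparisons. Its level was low, with a mean of 5.77 CPM over all kept cells and 17.5 in enterocyte-like cells. In proliferating-like and Goblet/Paneth-like cells the mean was 2.18 and 2.87 CPM. Ppargc1a was chosen here after its values were seen.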
